A study of Mus musculus with 46 samples.

Results

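The contacts of 17705 captured promoters were compared between livers of mice fed a lipid-rich diet (LD) and a carbohydrate-rich diet (CD). Contacts were measured by promoter capture Hi-C (PCHi-C), in which chromatin is cross-linked, cut with HindIII and ligated, and fragments that carry promoters are then pulled out with RNA baits. The members are all baited HindIII fragments with at least 1 interaction in the list of either diet, each list holding interactions with a CHiCAGO score of at least 5 that span at most 1 Mb. They come from 4 of the 46 samples of the series, 2 livers per diet, and the labels assign both livers of a diet to the same list, so each diet has 1 list. All mice were male C57BL/6 with no engineered allele named in the labels. The LD mice received 60% of energy as fat and 20% as carbohydrate, and the CD mice 10% as fat and 70% as carbohydrate, for 20 weeks, after normal chow in both groups. RNA-seq of 5 livers per diet, H3K27ac ChIP-seq of 3 per diet, and Hnf4α and C/EBPα ChIP-seq of 2 per diet were set beside the contacts.

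Genes are often controlled by enhancers that lie far away on the same chromosome, and chromatin loops bring such an element next to the promoter. Transcription factors such as Hnf4α and C/EBPα bind these elements in hepatocytes, and acetylation of histone H3 at lysine 27 (H3K27ac) marks the active ones. In PCHi-C, CHiCAGO scores each promoter-fragment pair by how far its reads exceed the number that distance and technical noise would give, and a pair that passes is called an interaction. The liver changes its fatty acid, sterol and bile acid metabolism with diet, and the comparison asks whether promoters of the genes involved gain or lose such contacts.

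The lists give scores but no read counts, so the reads behind a single contact cannot be read from them, and 1 list per diet leaves no spread between mice. Contact values are therefore descriptions without a test. The RNA libraries held between 31707963 and 39012699 counts on genes. The 8 hepatocyte markers summed to between 81795 and 98777 CPM (counts scaled by library size, not by gene length) in LD livers and between 89197 and 105168 CPM in CD livers, and 4 of them were called higher on CD, where 13.8% of all 13494 genes tested were called higher on LD and 11.1% higher on CD. The sum of 6 stellate cell markers was 572 to 774 CPM on LD and 398 to 477 CPM on CD, with 3 called higher on LD, and that of 9 Kupffer cell and macrophage markers was 494 to 1269 CPM on LD and 375 to 750 CPM on CD, also with 3 called higher on LD. Of the adipocyte markers, Lep and Plin1 were at 0 in every library and the sum of all 4 did not exceed 0.12 CPM. In bulk liver, fewer cells of a type and less RNA per cell cannot be told apart. The labels do not say more of the RNA replicates than their number, so p-values measure the spread between these samples.

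The LD list held 151203 interactions and the CD list 149798. Of the 195691 different promoter-fragment pairs, 105310 were on both lists, which was 69.6% of the LD list and 70.3% of the CD list. On LD 16508 promoters had an interaction and on CD 16130, and 14933 had one on both diets. A promoter with any interaction had a median of 5 on either diet, with quartiles of 2 and 13. Numbers differed by at most 2 at 11980 promoters, or 67.7%, and the difference had a standard deviation of 4.49 over all promoters. The 45893 pairs listed on LD only had a median score of 5.71, just above the minimum, and 369 of them scored 10 or more. The 44488 pairs listed on CD only had a median score of 5.74, and 585 of them scored 10 or more. Most interactions seen on 1 diet were thus close to the score minimum, since 85.7% of the LD-only pairs and 84.2% of the CD-only pairs scored under 7.

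A promoter was counted as shifted when its numbers differed by at least 5 and the larger number plus 1 was at least 2 times the smaller plus 1. Of all promoters, 491 (2.77%) were LD-shifted and 351 (1.98%) CD-shifted, or 842 (4.76%) in either direction. The excess of LD-shifted promoters depended on the score minimum, with 214 LD-shifted against 229 CD-shifted at a score of at least 7, and 60 against 137 at a score of at least 10. Just inside the limit stood 220 promoters with a difference of exactly 5, and just outside it 319 with a difference of 4 and the same ratio. A further 2116 promoters differed by 5 or more but by less than the ratio. In a further setting, other ends of a promoter within 10 kb of each other were merged, on the same diet as well as between diets. Then 98 promoters were LD-shifted and 72 CD-shifted.

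**Figure D1:**
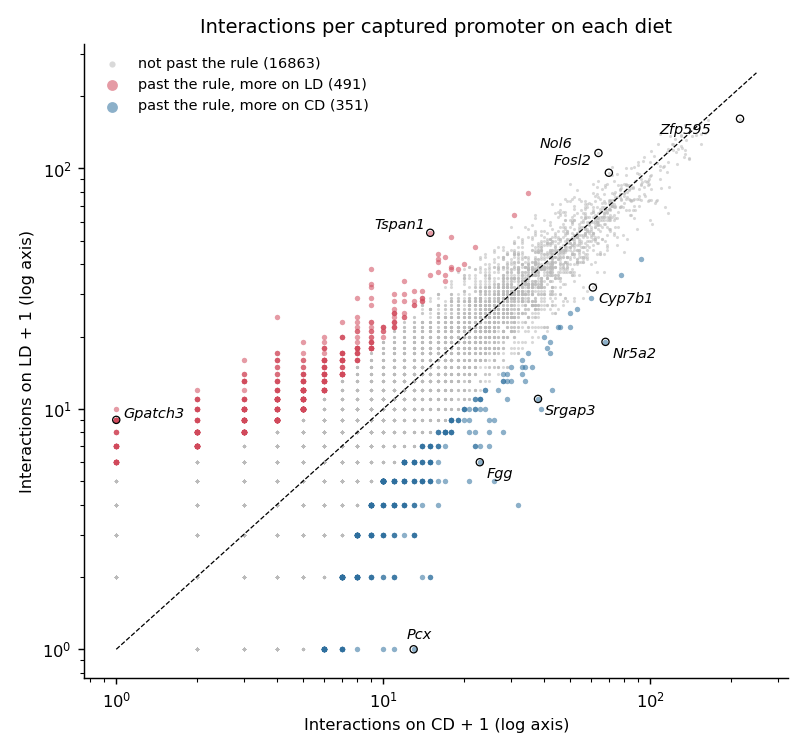
Number of interactions of each captured promoter on CD (x axis) and LD (y axis), each plus 1 and on log axes, with the dashed line at equal numbers. Red points are the 491 LD-shifted and blue points the 351 CD-shifted promoters, grey points the other promoters, and circles mark named promoters such as Nr5a2 and Tspan1, far from the line on opposite sides.

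The promoters with the largest excess of interactions on LD were led by Nol6, which encodes a nucleolar protein of ribosome assembly, and included 4 promoters on chromosome 4 and 2 beside keratin genes on chromosome 11. Nol6 (chr4:41067170-41081361, mm9) had 115 interactions on LD and 63 on CD, and 59 of these pairs were on both lists. Its summed score was 996 on LD and 482 on CD. Tspan1, a tetraspanin membrane protein gene, had 53 on LD and 14 on CD, and 53 of its 54 contacted fragments lay on the side of higher coordinates. Fam166b had 85 and 49. Fggy, which encodes a kinase of the FGGY carbohydrate kinase family, had 138 and 108. Ffar3, a receptor for short-chain fatty acids, had 100 and 71. On chromosome 11, beside keratin genes, Gm11937 had 51 and 17 and Gm14189 had 78 and 34, and Gm10008 on chromosome 18 had 63 and 30. Only Tspan1 and the 3 baits with Gm names were LD-shifted by the ratio as well. Of the interactions of Tspan1, 79.1% were on LD, which became 88.2% at a score of at least 7, 66.7% at 10 and 55.6% with other ends within 10 kb merged, so little of its excess was left in the last setting. The share of Nol6 went from 64.6% to 81.1% at a score of at least 10. None of the genes with a RefSeq start at these 8 promoters was called in the RNA. Nol6 RNA was 20.1 ± 0.754 CPM on LD and 20.3 ± 3.85 on CD (SD, n = 5 each; log2 fold change −0.01, SE 0.11). Fggy RNA was 146 ± 7.90 CPM on LD and 130 ± 5.54 on CD, and its edgeR adjusted p was 0.0678. Tspan1 and Fam166b had at most 6 counts in all libraries of a diet and could not be tested.

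The opposite end was led by Zfp595 and included Nr5a2 and Fn1. Nr5a2 encodes a nuclear receptor (LRH-1) of bile acid and cholesterol metabolism, and its promoter had 18 interactions on LD and 67 on CD. Of these pairs 17 were on both lists, 1 on LD only and 50 on CD only. The summed score was 125 on LD and 499 on CD, and the mean distance was 289 kb on LD and 203 kb on CD. Of its interactions 21.2% were on LD, which became 9.09% at a score of at least 10 and 38.5% with other ends within 10 kb merged. The promoter shared by Fn1, the fibronectin gene, and Apol7d had 35 on LD and 77 on CD, and all 79 contacted fragments lay on its side of higher coordinates, away from the body of Fn1. Gm17359 had 41 on LD and 91 on CD. These 3 promoters were CD-shifted. The remaining ones had high numbers on both diets and a ratio under the limit. Zfp595, a zinc finger gene in a cluster of such genes, had 160 on LD and 216 on CD, the most of any promoter in the CD list. The promoter shared by Bloc1s3 and Trappc6a, which encode parts of complexes of vesicle transport, had 64 and 116. Ckm, the muscle creatine kinase gene, had 68 and 113, Sae1, a subunit of the SUMO-activating enzyme, 58 and 101, and Ceacam9 60 and 99. The last 4 promoters are all on chromosome 7.

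The captured fragment of Nr5a2 was short, and its HindIII end lay close to the start of transcription. The 4 named promoters with a HindIII site in the 300 bases before the RefSeq start are printed here, since this site is where the captured fragment ends and the ligation measured by PCHi-C takes place. All are from the mm9 genome and read 5′ to 3′ on the strand of the gene, with the HindIII site AAGCTT in capitals. The window of Nr5a2 is chr1:138857026-138857325 on the minus strand, with the fragment of 578 bp ending 115 bp before the start. That of Slco1a1 is chr6:141895484-141895783 on the minus strand, with a fragment of 1315 bp ending 267 bp before the start. That of Fgg is chr3:82811346-82811645 on the plus strand, with a fragment of 781 bp ending 219 bp before the start, and that of Fads1 is chr19:10257078-10257377 on the plus strand, with a fragment of 449 bp ending 293 bp before the start.
Nr5a2: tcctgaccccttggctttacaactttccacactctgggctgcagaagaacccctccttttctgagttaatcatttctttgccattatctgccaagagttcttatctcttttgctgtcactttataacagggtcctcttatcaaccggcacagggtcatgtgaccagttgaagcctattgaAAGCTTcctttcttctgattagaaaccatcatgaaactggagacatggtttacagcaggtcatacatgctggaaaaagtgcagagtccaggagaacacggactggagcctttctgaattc
Slco1a1: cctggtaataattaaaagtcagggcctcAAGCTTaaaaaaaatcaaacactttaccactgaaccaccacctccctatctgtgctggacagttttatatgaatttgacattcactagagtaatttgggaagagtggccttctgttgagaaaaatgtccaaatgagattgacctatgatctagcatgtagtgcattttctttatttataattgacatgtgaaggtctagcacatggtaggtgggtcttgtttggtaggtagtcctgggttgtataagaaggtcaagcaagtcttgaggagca
Fgg: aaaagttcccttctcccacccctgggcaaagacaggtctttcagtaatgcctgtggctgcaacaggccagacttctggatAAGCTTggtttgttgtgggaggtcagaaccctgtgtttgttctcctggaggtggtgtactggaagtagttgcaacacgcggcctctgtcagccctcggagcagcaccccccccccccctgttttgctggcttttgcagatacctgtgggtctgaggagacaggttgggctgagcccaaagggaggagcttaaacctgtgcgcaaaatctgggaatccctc
Fads1: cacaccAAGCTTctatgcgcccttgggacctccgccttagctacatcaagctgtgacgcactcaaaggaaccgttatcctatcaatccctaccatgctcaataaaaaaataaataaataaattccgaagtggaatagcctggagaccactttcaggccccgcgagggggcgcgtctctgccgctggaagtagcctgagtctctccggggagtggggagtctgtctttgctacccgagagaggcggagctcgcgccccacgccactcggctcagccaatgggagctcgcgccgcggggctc
AAGCTT reads the same on both strands, and 791 of 13285 such windows, or 5.95%, held it. The fragments of these 4 promoters were short beside the median bait fragment of 5806 bp. All 4 had fewer interactions on LD than on CD. This direction came largely from the naming rule. Nr5a2 and Slco1a1 were named for an excess on CD, and Fgg and Fads1 for large differences in their lists. The median fragment was 5701 bp at CD-shifted and 6238 bp at LD-shifted promoters. The part of the site or of fragment length was not tested.

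Nr5a2 RNA was 51.4, 46.4, 52.3, 52.1 and 54.0 CPM in the LD livers and 62.8, 66.5, 61.5, 64.0 and 61.9 CPM in the CD livers. Every LD liver was below every CD liver. The log2 fold change was −0.31 (SE 0.06), called higher on CD (edgeR adjusted p = 0.00190). Fn1 RNA was 1027, 697, 862, 859 and 824 CPM on LD and 1061, 1317, 1814, 1661 and 1602 CPM on CD, again without overlap. Its log2 fold change was −0.80 (SE 0.14, edgeR adjusted p = 0.00118). Zfp595 RNA was 5.16 ± 1.03 CPM on LD and 8.36 ± 0.962 on CD (SD, n = 5 each) and called higher on CD. Sae1 and Trappc6a went the other way. Sae1 RNA was 24.9 ± 3.04 CPM on LD and 18.2 ± 2.28 on CD, and Trappc6a RNA was 14.6 ± 1.34 and 11.8 ± 1.17, both called higher on LD, although the Trappc6a call was lost when any of 3 single libraries was left out (LD replicate 4, CD replicate 4 or CD replicate 5, edgeR adjusted p from 0.05414 to 0.05994). At the 16 promoters at the extremes 8 genes could be tested and 5 were called, beside 24.9% of all genes tested. The RNA of 3 of them moved with the number of interactions and that of 2 against it.

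**Figure D2:**
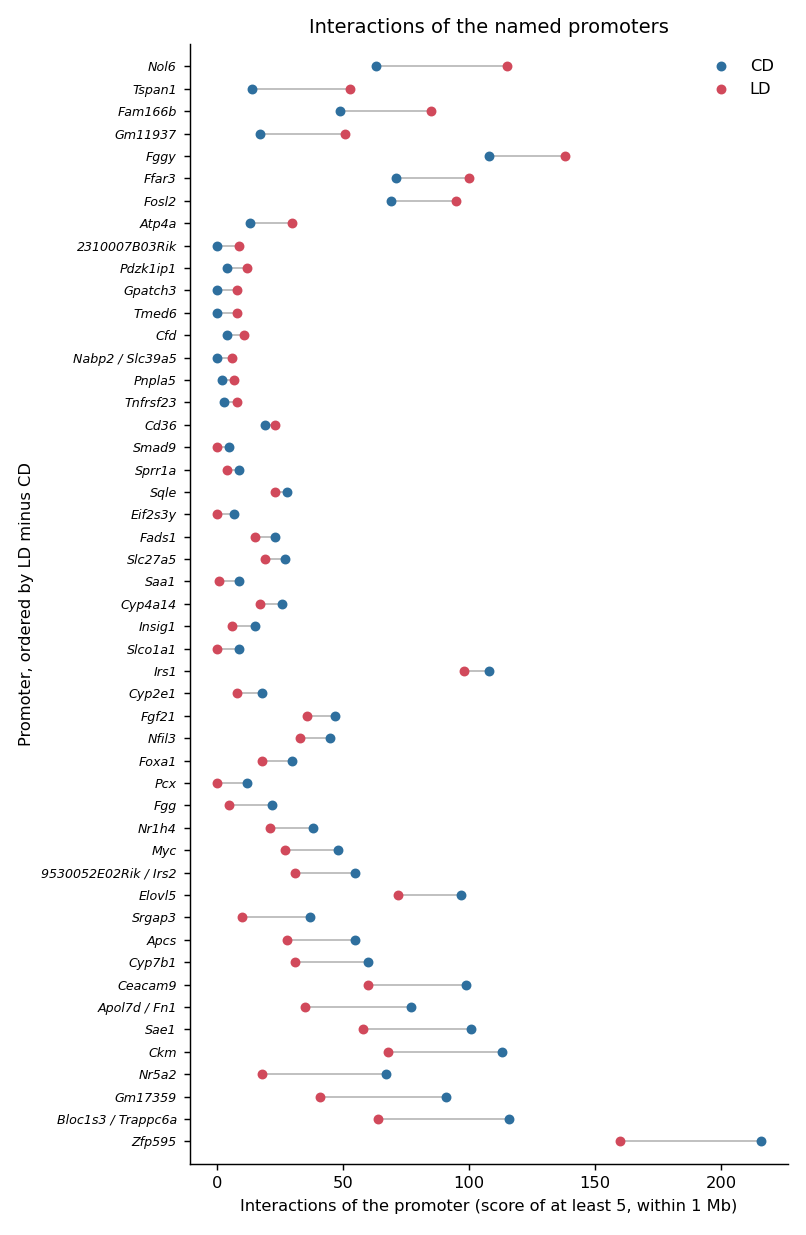
Interactions of named promoters on LD (red) and CD (blue), with the number on the x axis and promoters ordered by the difference. Nol6 at the top had 115 on LD and 63 on CD, and Zfp595 at the bottom 160 and 216.

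Some promoters had interactions on 1 diet only. On LD only there were 1575, with at most 9 interactions each, and on CD only 1197, with at most 12. The largest on the CD side was Pcx, the gene of pyruvate carboxylase, which makes oxaloacetate for gluconeogenesis. Its promoter (chr19:4508130-4511413) had 12 interactions on CD with a summed score of 72.2, and none on LD, where a listing needs a score of 5. Slco1a1, the gene of an organic anion and bile acid uptake transporter, had 9 on CD at a mean distance of 90.8 kb and none on LD. Eif2s3y, a translation initiation factor gene of the Y chromosome, had 7 on CD and none on LD. On the LD side stood Gpatch3 with 8 interactions, 2310007B03Rik with 9 and Tmed6 with 8, and none of them had any on CD. The unnamed or pseudogene baits Rpl28-ps4 (8 on LD only) and C230091D08Rik (10 on CD only) completed the 8 with the most unequal summed scores.

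Pcx RNA was 814 ± 108 CPM on LD and 717 ± 71.1 on CD (SD, n = 5 each), with a log2 fold change of 0.18 (SE 0.10) that was not called (edgeR adjusted p = 0.196). Slco1a1 RNA was 401, 374, 136, 16.2 and 27.2 CPM in the LD livers and 1072, 1184, 1035, 968 and 863 CPM in the CD livers. All LD livers were below all CD livers, and the LD livers differed widely among themselves. The log2 fold change of −2.42 (SE 0.86) did not pass in edgeR (adjusted p = 0.0678), while DESeq2 called it (adjusted p = 0.01025). Eif2s3y RNA was 52.3 ± 14.2 CPM on LD and 62.1 ± 5.53 on CD and was not called, nor was Gpatch3 at 4.39 ± 0.820 and 3.46 ± 0.711 CPM.

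Shifted promoters tended to lie next to promoters shifted the same way. Of the 491 LD-shifted promoters, 268 had another shifted promoter within 500 kb, and 84.8% of the 679 such neighbours were LD-shifted too. Of the 351 CD-shifted promoters, 175 had one, and 67.5% of 317 neighbours were CD-shifted. Among all shifted promoters, 58.3% were LD-shifted. Neighbouring promoters can contact the same fragments, so these are not independent. The largest group was on chromosome 11 at chr11:68782677-70464319, where 12 promoters, among them those of Shbg, the sex hormone-binding globulin gene, and Trappc1, had 147 interactions on LD and 54 on CD. A group of 10 at chr10:79252421-80678877 held Cfd, Tcf3 and Gng7 and had 98 on LD and 29 on CD. The keratin genes Krt80, Krt82, Krt4 and Krt18 were in a group of 8 at chr15:101198519-102292701, with 83 on LD and 22 on CD. Cd274, which encodes the immune checkpoint ligand PD-L1, was in a group of 7 at chr19:29175077-29795437, with 106 on LD and 30 on CD. The largest CD-shifted group, of 5 promoters at chr3:91811375-92558651, held Sprr1a and Lce1g of the epidermal differentiation cluster and had 15 on LD and 46 on CD.

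Whole chromosomes also differed. The ratio of LD to CD interactions was lowest on the Y chromosome at 0.441 (37 against 84), followed by X at 0.876 (3145 against 3591), and highest on chromosome 11 at 1.14 (11344 against 9951), where 61 promoters were LD-shifted and 9 CD-shifted. Chromosome X had 3 LD-shifted and 21 CD-shifted promoters. The ratio moved with base composition. Over the 20 chromosomes without Y its Pearson r with the median GC content of 100 kb around the promoters was 0.61, and over the 17705 promoters the r of the difference in number with GC content was 0.12. These are descriptions over positions that share libraries. When the promoters were put in 4 classes of like size by GC content, the ratio in the lowest class was 0.934, with 80 LD-shifted and 138 CD-shifted promoters. In the next classes it was 0.984 and 1.042, and in the highest class it was 1.099, with 161 LD-shifted and 51 CD-shifted. The part of GC content in the diet difference was not tested.

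Promoters of strongly expressed genes had a lower ratio at each level of GC content. The 1223 promoters with a gene of at least 100 CPM had 14447 interactions on LD and 15829 on CD, a ratio of 0.913, against 1.022 for genes between 1 and 100 CPM and 1.0265 for genes under 1 CPM. Among them 25 were LD-shifted and 62 CD-shifted, the opposite of the split over all promoters. More were CD-shifted than LD-shifted at each alternative score minimum, list length, distance and matching of fragments. LD-shifted numbers were between 5 and 24 and CD-shifted numbers between 10 and 59 in these settings. The opposite direction to all promoters did not hold at higher score minimums. All promoters had 214 LD-shifted against 229 CD-shifted at a score of at least 7, and 60 against 137 at 10. In each class of GC content the promoters of at least 100 CPM had the lowest ratio, 0.802, 0.882, 0.965 and 1.0226 from the lowest to the highest class, against 0.944, 0.986, 1.057 and 1.090 for 1 to 100 CPM. Genes of at least 100 CPM made up 8.74% of promoters with a RefSeq start, 6.61% of the LD-shifted and 23.1% of the CD-shifted ones. CPM is not divided by gene length, so the class takes in long genes more readily, and the level was chosen after the data were seen. A peak of Hnf4α was present at 32.2 ± 0.791% of all promoters in the LD samples, at 32.4 ± 1.15% of LD-shifted ones and at 39.0 ± 0.403% of CD-shifted ones (SD, n = 2). In the CD samples these were 33.6 ± 4.47%, 33.5 ± 5.91% and 41.6 ± 2.02%.

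**Figure D3:**
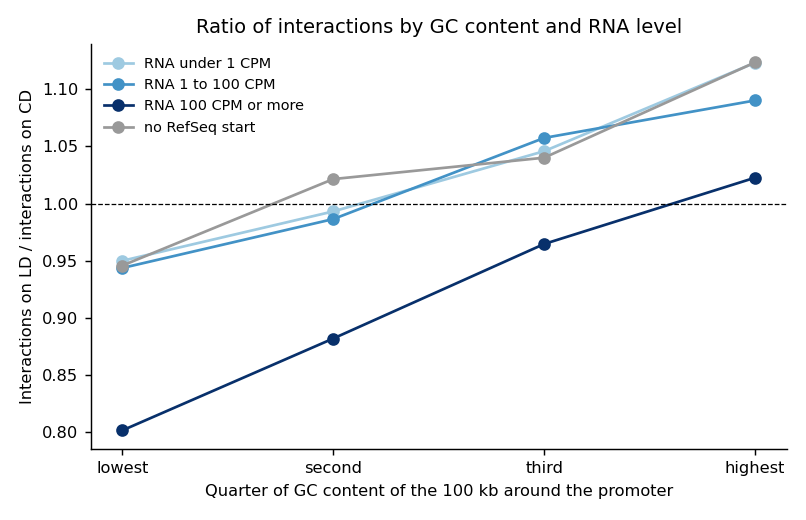
Ratio of LD to CD interactions (y axis) in 4 classes of promoters by the GC content of the surrounding 100 kb (x axis), with a line for each class of RNA level and the dashed line at equal numbers. The line for genes of at least 100 CPM runs from 0.802 to 1.0226 and is the lowest in each class.

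Among lists of liver genes, the bile acid list stood farthest to the CD side. Of 10 promoters of bile acid synthesis and transport genes none had more interactions on LD and 8 had more on CD, with 76 interactions on LD and 154 on CD in all. Of all 17705 promoters, 7832 had more on LD, 6754 more on CD and 3119 the same number. At a score of at least 10, 4 had more on CD and still none on LD. The median difference was −5.5, against 0 over all promoters, and 3 of 10 were CD-shifted, beside 1.98% of all promoters. Cyp7b1, an oxysterol hydroxylase of the alternative bile acid pathway, had 31 on LD and 60 on CD. All 66 fragments it contacted lay on the side of higher coordinates, upstream of the gene. Nr1h4, the bile acid receptor FXR, had 21 on LD and 38 on CD. Cyp7a1, the rate-limiting enzyme of bile acid synthesis, had 4 and 13, Abcb4, the phospholipid export pump, 3 and 10, Abcb11, the bile salt export pump, 9 and 13, and Slc10a1, the bile salt uptake transporter, 3 and 5. Cyp27a1 and Slc51b had equal numbers. The median GC content around these promoters was 41.4%, in the lowest class of all promoters (up to 41.6%), and its part was not tested. Of the 13 genes of the list, 2 were called higher on LD and 4 higher on CD in the RNA, beside 13.8% and 11.1% of all 13494 genes tested (24.9% in either direction). The 4 were Cyp7b1, Slc10a1, Abcb11 and Cyp27a1.

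Cyp7b1 RNA was 128, 102, 84.7, 83.8 and 59.8 CPM on LD and 220, 212, 244, 244 and 216 CPM on CD. No LD liver reached the lowest CD liver. The log2 fold change was −1.31 (SE 0.16, edgeR adjusted p = 0.000202). Abcb4, whose promoter also had more interactions on CD, had a log2 fold change of 0.77 and was called higher on LD. The RNA of Nr1h4 (−0.13) and Cyp7a1 (−0.80) was not called.

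Acute phase and secreted protein genes followed. Of 19 promoters 2 had more interactions on LD and 16 more on CD, with 331 and 425 interactions on LD and CD, a median difference of −5, and 4 CD-shifted promoters (21.1%), beside 1.98% CD-shifted, 7832 with more on LD and 6754 with more on CD among all 17705 promoters. The 3 fibrinogen genes had more on CD throughout, Fgg with 5 and 22, Fgb with 9 and 14 and Fga with 2 and 6. Apcs, the serum amyloid P gene, had 28 on LD and 55 on CD, Alb, the albumin gene, 2 and 7, and Orm1, the gene of an acid glycoprotein, 3 and 8. Saa1, a serum amyloid A gene, had 1 and 9. The exceptions were Serpina3n, a protease inhibitor gene, with 60 on LD and 47 on CD, and 1 of the 2 Igf1 promoters with 45 and 43. In the RNA, 9 of 20 genes were called higher on LD and 5 higher on CD, beside 13.8% and 11.1% of all genes tested.

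Fgg RNA was 2352, 2336, 2258, 2499 and 2168 CPM on LD and 4187, 3987, 3212, 3840 and 3806 CPM on CD. The groups did not overlap, and the log2 fold change was −0.71 (SE 0.08, edgeR adjusted p = 7.36e-05). Fgb (−0.76) and Fga (−0.62) were called higher on CD as well. Apcs RNA was 95.7 ± 6.68 CPM on LD and 107 ± 13.2 on CD (SD, n = 5 each) and was not called. Saa1 went against its contacts. Its RNA was 115, 93.5, 90.0, 92.8 and 85.7 CPM on LD and 12.9, 13.2, 18.7, 7.59 and 13.2 CPM on CD. Every LD liver was higher, with a log2 fold change of 2.86 (SE 0.19, edgeR adjusted p = 8.57e-06). Saa1 and Saa2 are near-identical copies, and reads may have been split between them.

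In the cytochrome P450 and xenobiotic enzyme list 8 of 10 promoters had more interactions on CD and none on LD. Of all 17705 promoters, 6754 had more on CD and 7832 more on LD. The RNA of this list leaned to LD, with 8 of 17 tested genes called higher on LD and 3 higher on CD. Of all genes tested, 13.8% were called higher on LD and 11.1% higher on CD. Cyp2e1, an ethanol-oxidising P450, had 8 on LD and 18 on CD and was CD-shifted. Cyp2e1 RNA was 6271 ± 1406 CPM on LD and 6440 ± 871 on CD (SD, n = 5 each) and not called. In the de novo lipogenesis list 8 of 11 promoters had more on CD and 1 more on LD, but none was shifted. Elovl5, a fatty acid elongase gene, had 72 on LD and 97 on CD, and Fads1, a desaturase gene, 15 and 23. The RNA of 8 of the 14 lipogenesis genes was called higher on CD and that of 1 higher on LD, beside 11.1% and 13.8% of all genes tested. The 1 was Fads2, a desaturase gene (0.64), with 11 interactions on LD and 16 on CD. Those higher on CD included Fasn (−0.94), Scd1 (−0.96), Elovl6 (−0.85), Mlxipl (−1.06) and Pnpla3 (−2.30), while their promoters had 4 and 3, 1 and 2, 33 and 39, 7 and 8, and 2 and 2 interactions on LD and CD. Elovl5 (0.39) and Fads1 (0.13) were not called, though Elovl5 was called higher on LD without LD replicate 1 or 2 or CD replicate 5 (edgeR adjusted p from 0.03135 to 0.04149) and by DESeq2 on all libraries (adjusted p = 0.04049).

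In the fatty acid oxidation and ketogenesis list 19 of 29 genes were called higher on LD and none on CD, beside 13.8% and 11.1% of all genes tested. Of its 23 promoters 5 had more interactions on LD and 14 more on CD, with a median difference of −1, the same as in the lipogenesis list. Ppara, the nuclear receptor that drives this program, had none on LD and 5 on CD and was the 1 shifted promoter, and its RNA was called higher on LD (0.34). Fgf21, a fasting hormone gene, had 36 on LD and 47 on CD. Cyp4a14, a fatty acid omega-hydroxylase gene, had 17 and 26. Cpt1a, the gatekeeper of mitochondrial fatty acid entry, had 10 and 8, and its RNA was called higher on LD (0.59). Fgf21 RNA was 3.36, 7.75, 14.5, 11.1 and 12.8 CPM on LD and 4.46, 3.42, 1.79, 4.35 and 5.27 CPM on CD. The lowest LD liver was within the CD range. It was called higher on LD (log2 fold change 1.36, SE 0.39, edgeR adjusted p = 0.0264), a call that was lost without LD replicate 3, 4 or 5 or CD replicate 2 or 4 (edgeR adjusted p between 0.05085 and 0.06556), without the filter on low counts (0.05075) and with the replicate number as a block (0.1091). Cyp4a14 RNA overlapped between the diets through 1 CD liver of 371 CPM and was not called (edgeR adjusted p = 0.105), but it was called higher on LD without that library, CD replicate 3 (edgeR adjusted p = 0.003929).

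The remaining lists had median differences between −1 and 1.5 interactions. Glucose metabolism and insulin signalling had 6 of 17 promoters with more on LD and 10 with more on CD. Irs2, an insulin receptor substrate gene, had 31 on LD and 55 on CD, and Irs1 98 and 108. Irs2 RNA was 7.17, 5.91, 7.42, 5.76 and 4.95 CPM on LD and 13.8, 16.03, 18.4, 18.01 and 13.5 CPM on CD. The diets did not overlap, and the log2 fold change was −1.35 (SE 0.13, edgeR adjusted p = 1.86e-05). Irs1 (−0.73) was also called higher on CD. Of 19 promoters of hepatocyte transcription factors 8 had more on each diet, with Nr5a2 CD-shifted and Gata6, a GATA factor gene, LD-shifted at 11 and 4. Foxa1, a pioneer factor gene, had 18 and 30, Foxa3 21 and 28, Hnf4a 2 and 4, and Cebpa 20 and 21. Circadian clock genes had 2 of 13 promoters with more on LD and 7 with more on CD. Cry1, a clock repressor, was CD-shifted with 2 and 8, and Nfil3 had 33 and 45. Cholesterol synthesis and uptake had 4 of 14 with more on LD and 8 with more on CD. Insig1, which retains SREBP in the endoplasmic reticulum, was CD-shifted with 6 and 15, and Sqle, a rate-limiting enzyme of sterol synthesis, had 23 and 28. Lipid droplet and fatty acid uptake genes had 7 of 18 with more on LD and 10 with more on CD. RNA was called higher on LD for 9 of the 19 genes of this list and higher on CD for none. Of all genes tested, 13.8% were called higher on LD and 11.1% higher on CD. The bile acid-CoA ligase Slc27a5 had 19 and 27 interactions. The AP-1, ETS and stress factor list was the only one of the 11 with more promoters on the LD side, 10 of 16 against 5. Fosl2, an AP-1 subunit gene, had 95 on LD and 69 on CD with all 97 contacted fragments on its side of lower coordinates, and Myc, a growth factor-responsive transcription factor gene, had 27 and 48. Of these genes, RNA was not called for Insig1, Sqle, Foxa1, Nfil3, Slc27a5, Fosl2 or Myc. Some of these calls turned on 1 library. Without CD replicate 4, Myc was called higher on LD (edgeR adjusted p = 0.008181), as it was by DESeq2 on all libraries (adjusted p = 0.03129). Without CD replicate 1, Sqle was called higher on LD (edgeR adjusted p = 0.01923) and Foxa1 higher on CD (edgeR adjusted p = 0.04144). Without LD replicate 4, Slc27a5 was called higher on CD (edgeR adjusted p = 0.04396).

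Summed scores and distances differed little between the diets as a whole. The summed score was higher on LD at 52.0% of the 14933 promoters with an interaction on both diets. This became 49.9% at a score of at least 7 and 46.8% at 10, among promoters with interactions on both diets there. Over the 7707 promoters with at least 5 interactions on each diet, the mean distance was 0.64 kb shorter on LD at the median, with a standard deviation of 43.7 kb, and longer on LD at 47.4%. It was over 100 kb longer on LD at 132 promoters and over 100 kb longer on CD at 217. The extremes had few interactions. Slc39a14, a zinc and iron transporter gene of liver, had 6 on each diet at a mean of 348 kb on LD and 87.5 kb on CD, with 3 pairs shared. Its RNA was 123 ± 11.6 CPM on LD and 166 ± 20.7 on CD (SD, n = 5 each) and called higher on CD (log2 fold change −0.43, SE 0.09, edgeR adjusted p = 0.00381). Papd7, a non-canonical poly(A) polymerase gene, had 6 on each diet at 451 and 202 kb, Zranb1, a deubiquitinase gene, 10 and 8 at 322 and 64.6 kb, and the olfactory receptor gene Olfr392 6 and 7 at 547 and 279 kb. In the other direction Rbm6, an RNA-binding protein gene, had 9 and 8 at 310 kb on LD and 587 kb on CD, Olfr1133 5 and 6 at 204 and 490 kb, and the baits Gm11016 and SNORA61.1 stood at 404 and 805 kb and at 360 and 638 kb. Papd7 RNA was 12.6 ± 0.673 CPM on LD and 16.01 ± 2.59 on CD and called higher on CD, a call lost without CD replicate 2 or 3 (edgeR adjusted p of 0.06010 and 0.05400). Rbm6 was not called.

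Pairs on both lists had similar scores. Over the 105310 pairs the log2 ratio of the LD to the CD score had a median of −0.02 and a standard deviation of 0.36, and the scores correlated across pairs with a Pearson r of 0.81 on the log2 scale. The score was at least 2-fold higher on LD in 399 pairs (0.379%) and on CD in 651 (0.618%). Among the 5 largest excesses on LD, pairs joined Olfr1051 to Olfr1010 and Olfr1012 (31.6 and 9.37), Srsf7, a splicing factor gene, to the promoter of 4921513D11Rik in Fam82a1 (17.9 and 5.49), H2-M10.1 to H2-M10.6 (17.6 and 5.55) and Chchd6, a gene of the mitochondrial cristae complex, to Tpra1 (15.9 and 5.12), each of these fragments being a bait itself. On CD the largest excess joined Gm15726 on chromosome X to an intron of Mid1 (6.03 on LD and 32.5 on CD). The snoRNA bait SNORA17.293 was joined to an intergenic fragment at chr9:77648861-77654719, whose nearest protein-coding gene is Gclc, of glutathione synthesis, with 35.0 on LD and 173 on CD, the highest score of the CD list. Cemip, a hyaluronan-degrading protein gene, was joined to an exon of Arnt2 (33.1 and 139), Zfp493 to Zfp459 (5.54 and 20.2) and Afg3l2, a mitochondrial protease gene, to Rnmt (7.99 and 27.4). Chchd6 RNA was 4.15 ± 0.437 CPM on LD and 1.64 ± 0.353 on CD (SD, n = 5 each) and called higher on LD (log2 fold change 1.33, SE 0.17, edgeR adjusted p = 0.000125). Srsf7, Zfp493 and Afg3l2 were not called, and Cemip had 4 counts in all.

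The RNA of genes at shifted promoters did not enter the rule for a shift, and whether the RNA and the contacts came from the same livers is not given in the sources used here. LD-shifted promoters had 290 tested genes, of which 38 (13.1%) were called higher on LD and 35 (12.1%) higher on CD. These shares were close to those of the 9921 tested genes at promoters that were not shifted, 13.8% and 11.1%. CD-shifted promoters had 200 tested genes, of which 23 (11.5%) were called higher on LD and 39 (19.5%, 95% exact Clopper-Pearson interval 14.25% to 25.68%, counting error only) higher on CD. Genes that share a promoter or a neighbourhood are not independent, and the share of genes of at least 100 CPM also differed between these groups, as given above, so the part of RNA level in the 19.5% was not tested. Over 10462 promoter-gene pairs the Pearson r between the difference in number of interactions and the RNA log2 fold change was 0.03, as a description across genes.

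The called genes at shifted promoters with the largest RNA changes moved both with and against their contacts. With RNA higher on LD, Cfd, the complement factor D gene, had 11 interactions on LD and 4 on CD. Its RNA was 37.3, 42.0, 18.4, 17.8 and 4.05 CPM on LD and 0.637, 0.313, 1.26, 0.0953 and 0.408 CPM on CD. The diets did not overlap (log2 fold change 5.44, SE 0.79, edgeR adjusted p = 0.00147). Cfd is strongly made by adipocytes. Of the 4 adipocyte markers Lep and Plin1 were at 0 and the sum was at most 0.12 CPM, while the lipid droplet genes Cidea (5.58) and Plin4 (3.54), which adipocytes also express, were called higher on LD, and the part of adipocyte RNA was not tested. Slc39a5, a zinc transporter gene that shares its promoter with Nabp2, had 6 on LD and none on CD. Its RNA was 3.15 ± 1.48 CPM on LD and 0.718 ± 0.336 on CD (log2 fold change 2.13, SE 0.40, edgeR adjusted p = 0.00234), while Nabp2, a single-stranded DNA-binding protein gene, was not called. Tnfrsf23, a decoy receptor gene, had 8 and 3, with RNA called higher on LD (1.37). Sprr1a, a gene of the cornified envelope of skin, had 4 on LD and 9 on CD, yet its RNA had 373 counts in the LD livers and 1 in the CD livers (edgeR adjusted p = 0.00137).

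With RNA higher on CD, Srgap3, a GTPase-activating protein gene, had 10 interactions on LD and 37 on CD, and all 37 contacted fragments lay on its side of lower coordinates. Its RNA was 0.758, 0.327, 0.714, 0.334 and 0.531 CPM on LD and 3.31, 3.97, 4.64, 5.08 and 6.00 CPM on CD. Each CD liver was above each LD liver (log2 fold change −3.11, SE 0.25, edgeR adjusted p = 8.29e-06). Smad9, a receptor-regulated SMAD gene of BMP signalling, had none on LD and 5 on CD. Its RNA was 3.03, 5.21, 2.76, 1.61 and 2.21 CPM on LD and 7.97, 11.9, 9.94, 20.01 and 14.6 CPM on CD, without overlap (log2 fold change −2.11, SE 0.33, edgeR adjusted p = 0.00111). Pnpla5, a lipase gene, went against its contacts with 7 on LD and 2 on CD and RNA of 0.769 ± 0.263 CPM on LD and 6.00 ± 3.77 on CD (SD, n = 5 each; log2 fold change −2.97, SE 0.44). Atp4a, a gastric proton pump subunit gene, had 30 and 13, and Pdzk1ip1 12 and 4, with RNA called higher on CD in both (−1.79 and −1.74). With Saa1, described above, these were 10 genes, of which 5 had their higher RNA on the diet with more interactions.

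**Figure D4:**
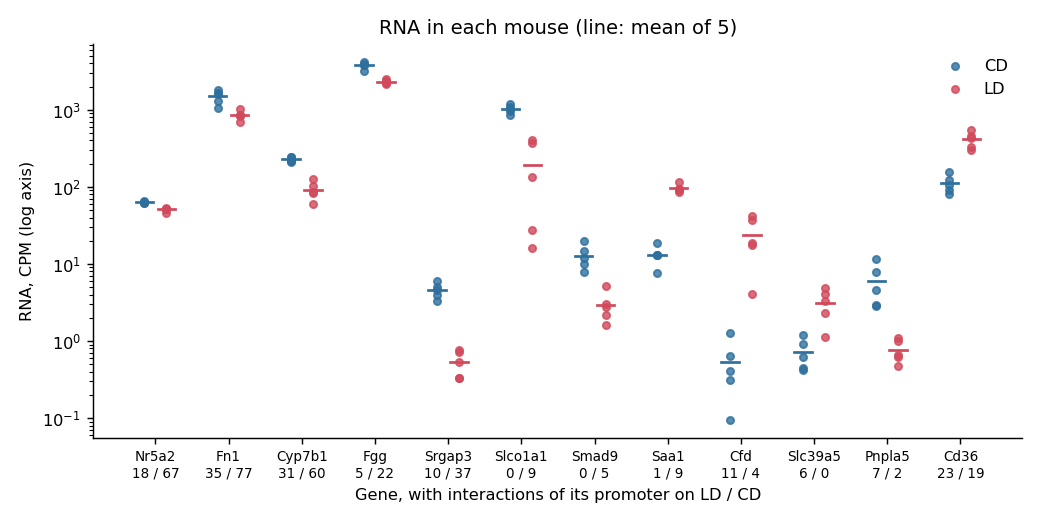
RNA of 12 named genes in each liver in CPM (log y axis), LD in red and CD in blue, with lines at the mean of 5, and the interactions of the promoter on LD / CD under each name. Saa1 and Pnpla5 have their higher RNA on the diet with fewer interactions, and Srgap3 and Smad9 on the diet with more.

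Cd36, Adgrf1 and Ldlrad4 are examples that the study shows. Cd36, the fatty acid translocase gene, had 23 on LD and 19 on CD, and all 24 contacted fragments lay on its side of higher coordinates. Of its interactions 54.8% were on LD. Settings that keep fewer of them gave 80% (score of at least 10) and 75% (other ends within 10 kb merged). Cd36 RNA was 329, 304, 462, 434 and 541 CPM on LD and 122, 105, 157, 81.9 and 91.9 CPM on CD. Every LD liver was above every CD liver (log2 fold change 1.89, SE 0.20, edgeR adjusted p = 0.000104). Of the 18 shared fragments, 6 had an H3K27ac peak in all 3 LD samples and 4 in all 3 CD samples. Adgrf1, an adhesion G protein-coupled receptor gene, had 48 on LD and 51 on CD, a share on LD of 48.5% that became 37.5% in the merged setting. Its RNA was 1.03, 0.956, 0.155, 0.243 and 0 CPM on LD and 28.0, 28.1, 11.1, 39.1 and 22.6 CPM on CD (log2 fold change −5.69, SE 0.61, edgeR adjusted p = 0.000296). Ldlrad4, a gene of TGF-beta signalling control, had 72 and 69, and its RNA was not called.

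Fragments contacted on CD only carried more regulatory marks than those contacted on LD only, in samples of both diets. Fragments that are baits themselves were left out, which left 16996 contacted on LD only, 15997 on CD only and 58331 on both. An H3K27ac peak was present at 18.8%, 19.9% and 18.5% of LD-only fragments in the LD samples and at 17.1%, 17.3% and 15.97% in the CD samples. At CD-only fragments it was present at 24.2%, 24.3% and 23.1% in the LD samples and at 22.7%, 23.3% and 22.7% in the CD samples. The fragments contacted on both diets had the highest shares, 27.04 ± 0.636% in the LD and 25.01 ± 0.615% in the CD samples (SD, n = 3 each). The gap between LD-only and CD-only fragments was −4.81 ± 0.456 percentage points in the LD samples and −6.15 ± 0.569 in the CD samples, so it was 1.34 points nearer to 0 in LD livers. This difference had an exact two-sided permutation p of 0.1, the smallest that 3 against 3 samples allow, and the groups did not overlap. CD-only fragments also had a lower GC content around them, with a median of 42.7% against 43.6% for LD-only fragments.

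Hnf4α and C/EBPα peaks followed the same order. Hnf4α was at 7.91 ± 0.216% of LD-only and 10.9 ± 0.106% of CD-only fragments in the LD samples, and at 6.63 ± 1.43% and 10.4 ± 1.78% in the CD samples (SD, n = 2 each). C/EBPα was at 7.0045 ± 0.279% and 9.77 ± 0.0262% in the LD samples, and at 8.46 ± 0.495% and 10.3 ± 0.172% in the CD samples. The gap between LD-only and CD-only fragments was 0.70 points nearer to 0 on LD for Hnf4α and 0.89 points farther from 0 on LD for C/EBPα, each with an exact two-sided permutation p of 0.333, the smallest that 2 against 2 samples allow. At a score of at least 10 the C/EBPα difference changed sign. With only the 20000 highest peaks of each sample, the gap on LD minus that on CD was 0.213 points for Hnf4α and −0.234 for C/EBPα. Leaving out each sample in turn gave 0.457 to 0.946 points for Hnf4α and −1.36 to −0.415 for C/EBPα.

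**Figure D5:**
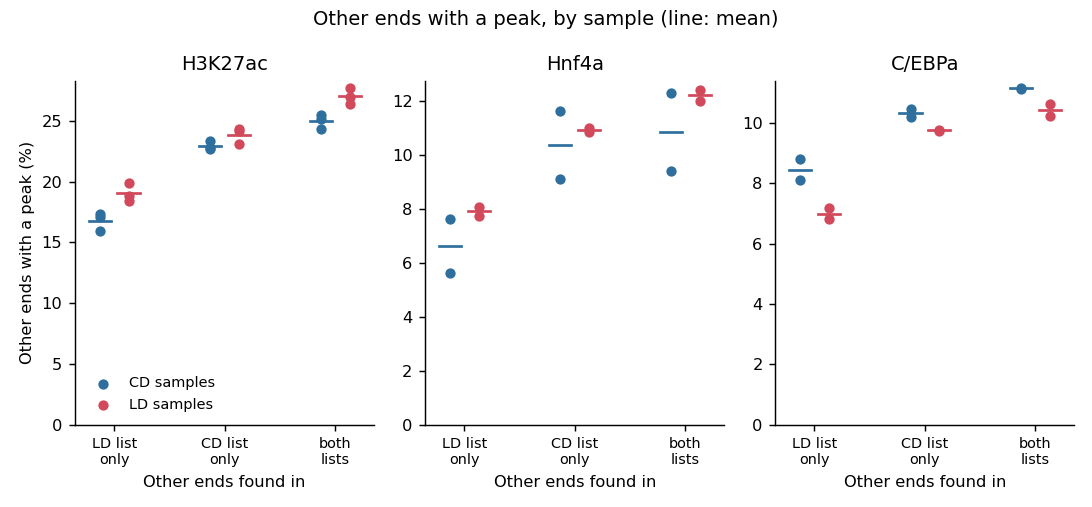
Share of contacted non-bait fragments with a peak of H3K27ac, Hnf4α or C/EBPα (y axis, percent) for fragments contacted on LD only, on CD only and on both diets, with a point for each sample (CD blue, LD red) and a line at the mean. In every sample the share at CD-only fragments is above that at LD-only fragments, for H3K27ac between 22.7% and 24.3% against 15.97% to 19.9%.

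The promoters with large differences carried such marks to different degrees. Of the 50 fragments that Nr5a2 contacted on CD only, 18 had an H3K27ac peak in all 3 LD samples and 21 in all 3 CD samples, and 7 had an Hnf4α peak in both samples of either diet. At Pcx 11 of the 12 CD-only fragments had an H3K27ac peak in all LD samples and all 12 in all CD samples. At Gpatch3 7 of the 8 LD-only fragments had H3K27ac in all LD samples and 6 in all CD samples. Nol6 had H3K27ac at 19 of its 56 LD-only fragments in all LD samples and at 18 in all CD samples. At Smad9 4 of 5 CD-only fragments were acetylated in all LD samples and 3 in all CD samples. Srgap3 had H3K27ac in all samples of a diet at 1 of its 27 CD-only fragments on either diet, Tspan1 at 6 of 40 LD-only fragments, Slco1a1 at 1 of 9 CD-only fragments, and Gm14189 at none of 48 LD-only fragments. The Nr5a2, Pcx, Fgg, Cyp7b1, Saa1 and Smad9 promoters had an H3K27ac peak in all 6 samples, and that of Tspan1 in none.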

How the data were processed

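Per the study's methods, the authors filtered the PCHi-C reads with HiCUP and deposited interactions with a CHiCAGO score of at least 5, without trans pairs and pairs over 1 Mb. The labels give both samples of a diet the same list, and the methods state that replicates were merged for Hi-C but do not say so for PCHi-C. The build in the processing notes is mm9. The deposited RNA values are counts per gene, made by the authors with STAR 2.5 and stranded featureCounts 1.5.0-p1. The authors called H3K27ac peaks with SICER and Hnf4α and C/EBPα peaks with HOMER in each sample, and the deposited HOMER files also hold a normalised tag signal, used here to rank peaks. The submitters' processing notes also name Bowtie 0.12.8 and Picard 1.110. Domain lists were not used, nor was a table of the authors' TPM and DESeq2 comparisons.

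Interactions were counted at each baited fragment, a pair of baits at both, in Python 3.11.15 with pandas 2.3.3 and scipy 1.17.1. Promoters are named by the RefSeq starts they hold or by the deposited bait names. To the summed scores 5 was added before taking ratios. RNA was tested with edgeR 4.0.16 (R 4.3.3) by its quasi-likelihood test with filtered low counts, TMM scaling and Benjamini-Hochberg adjustment over 13494 genes, and called at an adjusted p under 0.05 and a fold change over 1.2. On simulated counts with 200 genes changed 2-fold, 196 (98%) were recovered with 12 false calls. Peaks were counted at a fragment when they overlapped it. Shares have exact Clopper-Pearson intervals of 95%, which cover counting error only.

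The promoters and the 11 gene lists (206 genes) were chosen with earlier results of these data known. Promoters were named by a fixed rule, namely the 8 with the largest difference in number each way, the 4 most unequal summed scores and mean distances each way, the 5 most unequal shared pairs each way, the 2 largest differences in each gene list, Cd36, Ldlrad4 and Adgrf1, and at shifted promoters the 5 largest called RNA changes each way among genes of at least 1 CPM. The values of some genes and pairs that this rule names are not reported here. Other genes of a list are named as examples chosen after their values were seen. The 100 CPM level, the classes of GC content, the neighbour counts and the settings tried on single gene lists were added after seeing the data. Alternatives were other score minimums, list lengths, distances, matching of fragments, peak limits, RNA scaling, filter and tool (DESeq2 1.42.0), a replicate block and leaving out each replicate.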

Additional observations from a re-analysis of the deposited data

Results flagged for a closer look

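Among 106 groups of 5 livers, made of the named genes on each diet, 8 had a liver far from the other 4 by Dixon's test, and chance gives about 1 in 20. Fggy had 159.72 CPM in LD replicate 4, where the next liver had 144.31. Chchd6 had 1.0162 CPM in CD replicate 4, below the next at 1.7228. Myc had 5.3848 CPM in LD replicate 1, above the next at 2.8551, and 3.3027 CPM in CD replicate 4, above the next at 1.8047. Apcs had 84.101 CPM in LD replicate 1, below the next at 96.222. Cyp4a14 had 370.93 CPM in CD replicate 3, above the next at 149.0. Sprr1a had 0.027931 CPM in CD replicate 3 and 0 in the other CD livers, which is 1 count. Saa1 had 115.14 CPM in LD replicate 1, above the next at 93.498.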

How the results depend on the processing

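Each diet has 1 contact list, so no replicate could be left out there, and the lists hold no reads per contact. LD-shifted promoters numbered 214 at a score of at least 7, 60 at a score of at least 10, 325 in the 100000 highest scores of each diet and 98 with other ends within 10 kb merged, and CD-shifted ones 229, 137, 250 and 72. The summed score was higher on LD at 49.9%, 46.8% and, up to 500 kb, 53.0% of the promoters with interactions on both diets in that setting. Scores of shared pairs were higher on LD in 45.2% at a score of at least 7, 43.1% at 10 and 46.1% in the 100000 highest, with 96, 17 and 188 pairs at least 2-fold higher on LD and 202, 52 and 343 on CD. Among genes at LD-shifted promoters, 18.4% were higher on LD and 2.63% on CD at a score of at least 10, which are 7 and 1 of 38 genes. The shares by DESeq2 are of the genes to which it gave an adjusted p, and of those at CD-shifted promoters 42 of 222 (18.9%) were higher on CD. The cause of these changes was not tested.

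The C/EBPα difference was 0.095 points at a score of at least 10 (exact permutation p = 1). Stricter or merged settings keep fewer interactions of a promoter, so shares in them rest on smaller numbers. The share of interactions on LD changed side for Gm11016 (100% at a score of at least 7 and 100% up to 500 kb), Rbm6 (25% at 10), Irs1 (55% at 7) and Sprr1a (100% at 10). Without changing side, it fell to 16.7% for Fn1, 23.4% for Bloc1s3, 20% for Myc and 0% for Fgg and Insig1 at 10, to 0% for Saa1 and 6.25% for Srgap3 at 7, to 0% for Cyp2e1 up to 500 kb and to 25% for Ckm with ends merged, and it reached 100% for Tnfrsf23, Pnpla5, Atp4a and Pdzk1ip1 at 7. Uncalled RNA changes near 0 changed sign when a library was left out, with log2 fold changes from −0.087 to 0.089 for Nol6, −0.129 to 0.008 for Srsf7, −0.114 to 0.086 for Cyp2e1 and −0.014 to 0.133 for Nabp2.

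RNA calls numbered 1631 to 1890 higher on LD and 1202 to 1595 on CD with each library left out, and 2081 and 1695 by DESeq2. The replicate numbers did not pair the livers, with correlations of same-numbered deviations between −0.13 and 0.23, and with the number as a replicate block 1818 and 1355 genes were called and Nol6 stood at 0.006.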
